A study of Mus musculus with 2 samples.

Results

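Pericytes and vascular smooth muscle cells are the mural cells of blood vessels, and 9 of their genes were described here in total RNA of the mouse cerebral cortex. The genes were listed by symbol as markers of these cells, and all 9 were found among the 55536 genes of the deposited tables. Pdgfrb, Rgs5, Kcnj8, Abcc9, Vtn and Higd1b formed the 6 pericyte members, and Acta2, Myh11 and Tagln the 3 smooth muscle members. The 2 samples were left cerebral cortex of males of a 5xFAD by CAST cross at an age of 8 to 10 months, with 300 ng of RNA per library, and they formed 1 group with no contrast. The 5xFAD line carries human transgenes with familial Alzheimer disease mutations, which the Thy1 promoter drives in neurons, and CAST is a wild-derived inbred strain. Mice without the transgenes were not analysed here, so no value below bears on the transgenes. The labels number the samples as biological replicates 1 and 2 and give each its own biosample, but both the same donor. They are read here as 2 animals, which the labels do not state outright, and each statement on a difference between the animals describes these 2 libraries.

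Pericytes sit within the basement membrane of capillaries, where endothelial PDGF-BB holds them through the receptor PDGFRβ. Vascular smooth muscle cells ring arterioles and contract through smooth muscle actin and myosin. Pericytes and smooth muscle cells share many genes, and Pdgfrb, Rgs5, Kcnj8 and Abcc9 are also read in smooth muscle cells of the brain, so the division of the members is one of emphasis.

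The libraries held 33925221 and 32380330 expected reads on genes, and 14843 genes reached 1 TPM, a length-scaled share of all transcripts, in both. Markers of cortical neurons were high in both, with Slc17a7, the vesicular glutamate transporter of excitatory neurons, at 449.7 ± 37.6 TPM (mean ± SD, n = 2, as for every mean below) and Tbr1, a transcription factor of deep-layer neurons, at 45.0 ± 3.5 TPM. Markers of choroid plexus differed most among the lists read beside the members: all 10 were higher in replicate 1 by at least 2-fold, and their summed level was 564.09 TPM in replicate 1 and 110.34 TPM in replicate 2. The part of this difference in the values of the mural genes was not tested.

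All 9 mural genes were detected, from Vtn at 34.97 ± 1.23 TPM to Kcnj8 at 1.25 ± 0.12 TPM. The order of mean level was Vtn, Rgs5, Acta2, Tagln, Pdgfrb, Higd1b, Myh11, Abcc9 and Kcnj8. The values of neighbours in this order overlapped for Acta2 and Tagln and met for Higd1b and Myh11, so the order within these pairs is not resolved by 2 libraries. The place of Tagln against Pdgfrb was not resolved either: with reads over the longest coding transcript Tagln was at 5.41 and 3.81 TPM and Pdgfrb at 6.61 and 6.63 TPM, and in the kallisto-format table Tagln was lower in replicate 1 (5.87 against 6.82 TPM) and higher in replicate 2 (7.60 against 5.85 TPM). Acta2, at 6.93 and 5.72 TPM over the longest coding transcript, likewise lay on both sides of Pdgfrb. Only Vtn and Rgs5 lay above the median of the detected genes, which was 12.54 TPM in replicate 1 and 13.66 TPM in replicate 2. Vtn stood at percentile 79.5 and 76.3 of the detected genes, and Kcnj8 at percentile 3.62 and 1.04. In bulk tissue, fewer cells of a type and less RNA per cell cannot be told apart.

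**Figure D1:**
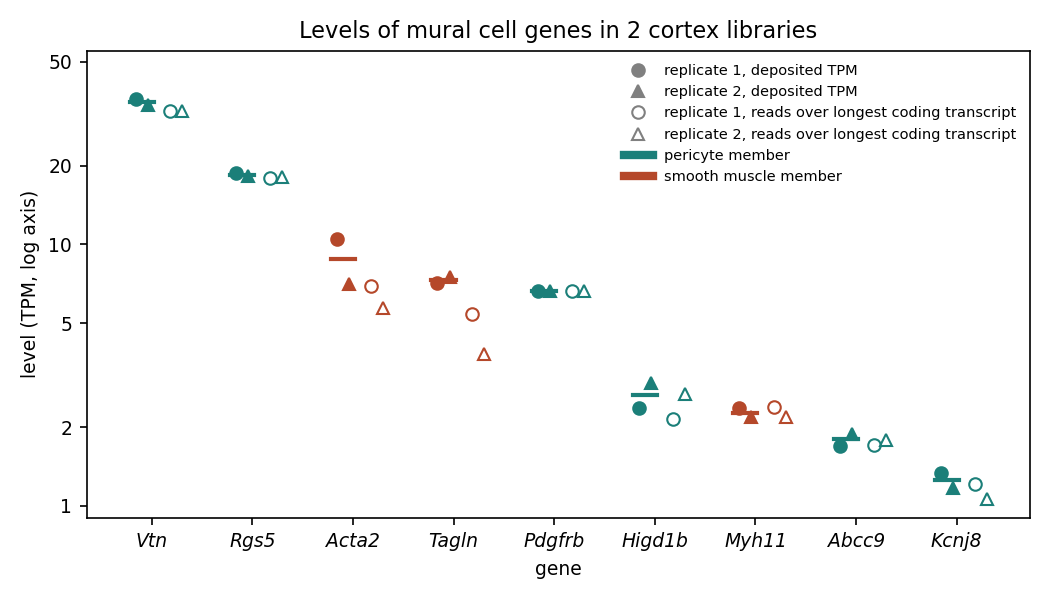
Level of each gene in TPM on a log axis, with circles for replicate 1, triangles for replicate 2 and a bar for the mean; filled symbols are the deposited TPM and open symbols the reads over the longest coding transcript. Vtn and Rgs5 lie highest, Kcnj8 lowest, and the open symbols of Acta2 and Tagln lie below their filled ones.

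Neither set of members was uniformly higher. The median log2(TPM + 0.1) of the 6 pericyte members minus that of the 3 smooth muscle members was -0.82 for replicate 1 and -0.66 for replicate 2 (mean -0.74 ± 0.12), which puts the middle smooth muscle member higher. The sign turned when means replaced medians, to 0.066, and when the other genes of both cell types were added, to 0.48. With reads divided by the length of the longest coding transcript the gap was -0.18, with opposite signs in the animals (-0.51 and 0.15). The summed level went the other way, at 66.55 and 65.01 TPM for the pericyte members and 19.95 and 16.75 TPM for the smooth muscle members. Vtn alone gave 35.84 and 34.10 TPM of the pericyte sum.

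Pdgfrb encodes the PDGF-BB receptor by which pericytes are recruited and kept. Its RSEM-format level varied least of the members, at 6.63 TPM in replicate 1 and 6.65 TPM in replicate 2. In the kallisto-format table it was at 6.82 and 5.85 TPM and did not vary least. Its reads numbered 878 and 787. The gene lies at chr18:61045150-61085061 (mm10, plus strand), 15536 bases from Csf1r, the colony-stimulating factor receptor of microglia, with no annotated gene between them. The RSEM-format table gave all of the gene to Pdgfrb-201 in both libraries, and the kallisto-format table gave this transcript 100% and 78.2%.

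Of the other 5 genes of the PDGF system, 3 stood above Pdgfrb and 2 below it. Pdgfb, which encodes the ligand made by endothelium and some neurons, was at 13.23 ± 0.72 TPM, 2.07 and 1.91 times Pdgfrb in the 2 libraries. Pdgfra, the receptor of oligodendrocyte precursors and fibroblasts, was at 17.30 ± 0.84 TPM, 2.52 and 2.69 times Pdgfrb. Pdgfa, a ligand of Pdgfra, was at 20.92 ± 0.31 TPM, while the ligands Pdgfc and Pdgfd were at 3.09 ± 0.30 and 1.56 ± 0.31 TPM. None of the 6 genes of the system differed between the animals by the 2-fold rule given further on, which called 1.22% of all genes tested. All 6 had a log2 ratio of reads, replicate 2 over replicate 1, below 0, against 50.3% of all genes tested, with a median of -0.21. The 95% counting interval lay below 0 for 4 of the 6 (66.7%, against 13.5% of all).

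Kcnj8 and Abcc9 encode the pore (Kir6.1) and the regulatory subunit (SUR2) of the vascular ATP-sensitive potassium channel, which couples the metabolic state of mural cells to their membrane potential. They were the lowest members. Kcnj8 was at 1.34 and 1.17 TPM, on 74 and 58 reads, and Abcc9 at 1.70 and 1.89 TPM, on 307 and 287 reads. Abcc9 over Kcnj8 was 1.27 in replicate 1 and 1.62 in replicate 2. The assembled channel holds equal numbers of both subunits. The genes are neighbours on the minus strand of chromosome 6, Kcnj8 at chr6:142564837-142571614 and Abcc9 at chr6:142587862-142702315, with 16247 bases and no annotated gene between them.

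The related subunits of the channel that neurons and insulin-secreting cells use were higher in the same libraries. Kcnj11 (Kir6.2) was at 15.98 ± 1.02 TPM, 11.4 and 14.3 times Kcnj8. Abcc8 (SUR1) was at 14.87 ± 3.54 TPM, 7.28 and 9.19 times Abcc9. The neuronal pair thus exceeded the mural pair in both animals, by more for the pore than for the regulatory subunit.

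Abcc9 ends in either of a pair of coding exons of equal length, and the choice makes the proteins SUR2A, of heart and skeletal muscle, and SUR2B, of vascular smooth muscle. The exons are printed because they give the different protein ends. They were read from the M21 transcripts on the minus strand of mm10, each 135 bases long, the upstream exon at chr6:142594008-142594142 (SUR2A type) and the downstream exon at chr6:142590369-142590503 (SUR2B type). Capitals mark the bases that differ.
Abcc9 upstream exon: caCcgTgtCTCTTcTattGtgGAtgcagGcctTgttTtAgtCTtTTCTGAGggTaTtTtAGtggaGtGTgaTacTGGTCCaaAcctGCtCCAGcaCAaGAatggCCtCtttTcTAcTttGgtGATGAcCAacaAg
Abcc9 downstream exon: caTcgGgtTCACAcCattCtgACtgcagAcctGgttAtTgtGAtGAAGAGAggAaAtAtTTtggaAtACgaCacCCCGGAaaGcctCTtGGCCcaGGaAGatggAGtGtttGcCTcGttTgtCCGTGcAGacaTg
The exons were identical at 51.1% of positions. The last 135 coding bases of Abcc8 were identical to the downstream exon at 69.6% of positions and to the upstream exon at 51.9%.

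The SUR2B-type end was the main form of Abcc9, at 65.5% or more of the level in either table and library. Abcc9-203, the only transcript annotated to end its coding part in the downstream exon, took 94.35% of the gene in replicate 1 and 84.44% in replicate 2 in the RSEM-format table, a mean of 89.4 ± 7.0%. The 4 transcripts whose coding part ends in the upstream, SUR2A-type exon took the remaining 5.65% and 15.56%. These fell on different transcripts in the animals, Abcc9-204 in replicate 1 and Abcc9-206 in replicate 2. The kallisto-format table gave Abcc9-203 a lower share, 71.8% and 65.5%, and the transcripts with the upstream exon 23.9% and 34.5%. Abcc9-203 led in both tables and both libraries. The bases of the downstream exon lie in 4 transcripts, since Abcc9-201, Abcc9-202 and Abcc9-204 hold them as untranslated sequence after the upstream exon. Reads within the downstream exon therefore do not separate the forms, and Abcc9-203 holds only 28 stretches of 31 bases found in no other transcript of the gene. Abcc9-201, Abcc9-202 and Abcc9-206 hold none, so the split among the transcripts with the upstream exon is weakly anchored too.

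Kcnj8 has a pair of annotated transcripts, and the shorter coding frame took the larger share. Kcnj8-201, with 381 coding bases, took 84.06% and 80.84% of the gene, and Kcnj8-202, whose 1272 coding bases encode the whole channel subunit, took 15.94% and 19.16%. Kcnj8-201 lacks 34 bases that Kcnj8-202 has at chr6:142566472-142566505, in capitals here between the bases that flank them in Kcnj8-202.
Kcnj8-202: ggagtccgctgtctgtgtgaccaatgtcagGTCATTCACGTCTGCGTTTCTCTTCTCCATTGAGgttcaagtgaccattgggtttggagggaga
The kallisto-format shares were closer to even, at 64.0% and 51.2% for Kcnj8-201. With 74 and 58 reads on the gene in all, few reads can span this stretch. The transcripts, of 2269 and 2548 bases, also differ outside it. Kcnj8-201 holds 26 stretches of 31 bases that Kcnj8-202 lacks, and Kcnj8-202 holds 305 that Kcnj8-201 lacks. The shares thus do not rest on the 34 bases alone.

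Rgs5, a regulator of G-protein signalling and a widely used pericyte marker, was at 18.67 TPM in replicate 1 and 18.24 TPM in replicate 2. It had the most reads of the members, 1791 and 1609, over chr1:169655501-169695813 (plus strand). Rgs5-201 took 95.42% and 98.81% of the gene. The related Rgs4, a gene of cortical neurons, was 5.91 and 7.18 times as high, at 120.6 ± 14.6 TPM. Rgs2 and Rgs8 also exceeded Rgs5, at 33.15 ± 7.31 and 29.63 ± 2.62 TPM, and Rgs16 lay below it at 4.69 ± 0.40 TPM.

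Vtn encodes vitronectin, an adhesion protein of plasma and matrix that brain pericytes secrete. It had the highest level of the members, 35.84 and 34.10 TPM on 1327 and 1184 reads at chr11:78499091-78502324 (plus strand), and was 5.41 and 5.13 times Pdgfrb. The coding transcript Vtn-201 took 84.89% and 91.18%, and Vtn-204, a retained intron, took 15.11% and 7.01%. Of the integrin genes that encode receptors of vitronectin or their partners, Itgav was at 51.88 ± 4.94 TPM, Itgb5 at 28.77 ± 1.90 TPM, Itgb1 at 20.64 ± 0.88 TPM and Itgb3 at 1.66 ± 0.09 TPM. Itgav, the chain that pairs with each of those β chains, thus exceeded all 3 of them.

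Higd1b, a member of the hypoxia-inducible domain family enriched in pericytes, was at 2.37 and 2.96 TPM and rested on the fewest reads of all members, 34 and 38. It lies at chr11:102835849-102838040 (plus strand). In the RSEM-format table Higd1b-201 led with 71.06% and 75.38%. The rest went to Higd1b-203 in replicate 1 and to Higd1b-202 in replicate 2, on 7.35 and 6.44 expected reads. The kallisto-format table reversed this, with 35.9% for Higd1b-202 in replicate 1 and 18.4% for Higd1b-203 in replicate 2. The minor transcript of each library is thus not resolved. The relatives of Higd1b in the mitochondrial inner membrane were far higher, Higd2a at 61.05 ± 0.46 TPM and Higd1a at 37.05 ± 2.67 TPM. Higd1a was 14.8 and 13.2 times Higd1b. Higd1c had 0 reads in both libraries, where the limit that a count of 0 allows, 3 reads, is 0.0884 and 0.0926 CPM (reads scaled to library size).

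Acta2 encodes smooth muscle α-actin, the thin filament of contractile mural cells. Its level was 10.46 TPM in replicate 1 and 7.08 TPM in replicate 2, on 335 and 247 reads at chr19:34241090-34255590 (minus strand). The level was lower in replicate 2 on both scales, reads and TPM. The cytoplasmic actins that all cells use stood far above it, Actb at 1157 ± 49.5 TPM and Actg1 at 563.8 ± 27.7 TPM. Actb was 107 and 168 times Acta2. Acta1, the skeletal muscle actin, was at 8.51 ± 1.68 TPM, near Acta2, and Actc1, the cardiac actin, at 0.98 ± 0.01 TPM. Actg2, the enteric smooth muscle actin, had 0 reads in both libraries.

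Actin genes share sequence, and 1.39% of the 31-base stretches of Acta2 also occur in other genes, most often Actg1 and Actb. Acta2-201 took 46.05% of the gene in replicate 1 and 69.42% in replicate 2, and the shorter Acta2-202 took 53.95% and 30.58%, so the leading transcript differed between the animals. In the kallisto-format table Acta2-202 led in both, with 65.8% and 53.4%. The share of reads given to the short transcript also sets the length by which the gene is divided, which was 1383 bases in replicate 1 and 1665 bases in replicate 2. When reads were divided by the longest coding transcript instead, Acta2 came to 6.93 and 5.72 TPM.

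Serum response factor binds CArG boxes, CC, 6 bases of A or T, then GG, and these boxes mark the promoters of contractile smooth muscle genes. RefSeq promoter windows (GRCm38.p6), from 250 bases before to 50 bases after the start, were matched for 5 of the 9 members: Rgs5, Kcnj8, Abcc9, Vtn and Acta2. Pdgfrb, Myh11, Tagln and Higd1b were not matched. A box with 6 core bases of A or T was in none of the 5 windows, and in 1.63% of all 32851 windows. With 1 core base allowed to be G or C, Acta2 held 2 boxes and the 4 pericyte windows none. Of all windows, 8.50% held at least 1 such box and 0.679% at least 2. Both strands were searched. The boxes of Acta2 are printed because they are the only matches, with the box in capitals, on the minus strand at chr19:34255448-34255457 and chr19:34255398-34255407, which begin 84 and 34 bases before the RefSeq start.
Acta2 box 1: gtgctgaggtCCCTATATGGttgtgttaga
Acta2 box 2: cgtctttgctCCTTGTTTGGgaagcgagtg
In M21 both boxes fall inside the first annotated exon of Acta2-201, whose start lies upstream of the RefSeq start. A match describes these letters and no binding was measured.

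Tagln encodes transgelin (SM22α), an actin-binding protein of smooth muscle. Its deposited level was nearly equal, 7.12 TPM in replicate 1 and 7.49 TPM in replicate 2, while its reads were not, at 202 and 127. The gene lies at chr9:45929619-45936058 (minus strand). The read ratio was -0.63 on the log2 scale and the TPM ratio 0.07. The full-length Tagln-201, of 1595 bases, had 188.0 and 98.2 expected reads, whereas Tagln-202, of 369 bases, had 14.03 and 26.53. The share of Tagln-202 was therefore 29.32% in replicate 1 and 59.04% in replicate 2, and the length used for the gene was 1236 and 860 bases. Divided by the longest coding transcript, the reads came to 5.41 and 3.81 TPM, lower in replicate 2. Tagln-202 holds only 29 stretches of 31 bases of its own, 8.55% of its stretches.

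The gene overlaps Pcsk7 on the opposite strand by 108 bases, and an antisense entry, Gm48529, had 34 and 33 reads. The strand setting of the counting was not given in the sources used here, so reads of Tagln and of these overlapping genes may not be fully separated. Tagln3, the neuronal relative, was 17.9 and 18.9 times Tagln, at 134.5 ± 10.1 TPM. Tagln2, the relative of non-muscle cells, was at 6.24 ± 0.43 TPM.

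Myh11 encodes the smooth muscle myosin heavy chain, the most specific of the contractile members. It was at 2.37 and 2.18 TPM on 379 and 310 reads, over chr16:14194535-14291372 (minus strand). It had more reads than Acta2 and a lower TPM, since its transcripts are several times longer. Acta2 over Myh11 was 4.41 in replicate 1 and 3.25 in replicate 2. The non-muscle heavy chains were higher, Myh10 at 83.09 ± 7.46 TPM, Myh9 at 33.03 ± 1.40 TPM and Myh14 at 12.78 ± 0.52 TPM. Myh10 was 32.8 and 40.5 times Myh11. Of the 31-base stretches of Myh11, 0.905% also occur in these 3 genes.

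Splicing of Myh11 sets the speed of the motor through a short head insert, and its tail end as SM1 or SM2. The stretches that separate the forms are in capitals, read from the M21 transcripts on the minus strand. They are the 21-base head insert at chr16:14248580-14248600, the first 28 coding bases of the SM1 end at chr16:14195157-14195184, and the 28 coding bases of the SM2 exon at chr16:14198061-14198088.
Myh11-204 head insert: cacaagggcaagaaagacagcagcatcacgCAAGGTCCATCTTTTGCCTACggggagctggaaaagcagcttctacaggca
Myh11-201 SM1 end: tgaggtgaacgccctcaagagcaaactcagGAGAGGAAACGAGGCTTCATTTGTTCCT
Myh11-202 SM2 end: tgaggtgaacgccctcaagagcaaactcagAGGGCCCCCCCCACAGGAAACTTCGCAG
Transcripts whose coding part has the SM1 end took 92.41% and 93.01% of the gene and the transcript with the SM2 end 7.59% and 6.99%. The bases of the SM1 end also lie in Myh11-202, after its stop, so the forms are told apart by the SM2 exon. The animals were close on this split, and the kallisto-format table gave the SM1 end 91.0% and 91.9%. The head insert varied more, at 15.11% in replicate 1 and 37.35% in replicate 2, and at 28.0% and 39.5% in the kallisto-format table. Myh11-201, with the SM1 end and no insert, led in both libraries with 77.3% and 55.66%. Few reads can bear on either split. Myh11-202 holds 66 stretches of 31 bases found in no other transcript of the gene (1.07% of its stretches). Myh11-204 holds 51 (0.794%), so both splits are weakly anchored estimates.

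Across the 9 members, 28 transcripts were annotated, 23 protein-coding and 5 retained introns. In the RSEM-format table the leading transcript was the same in both libraries for 7 members and differed for Acta2 and Tagln; in the kallisto-format table it was the same for 8 and differed for Tagln. The tables in RSEM and kallisto format named the same leading transcript for 9 members in replicate 1 and for 8 in replicate 2.

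**Figure D2:**
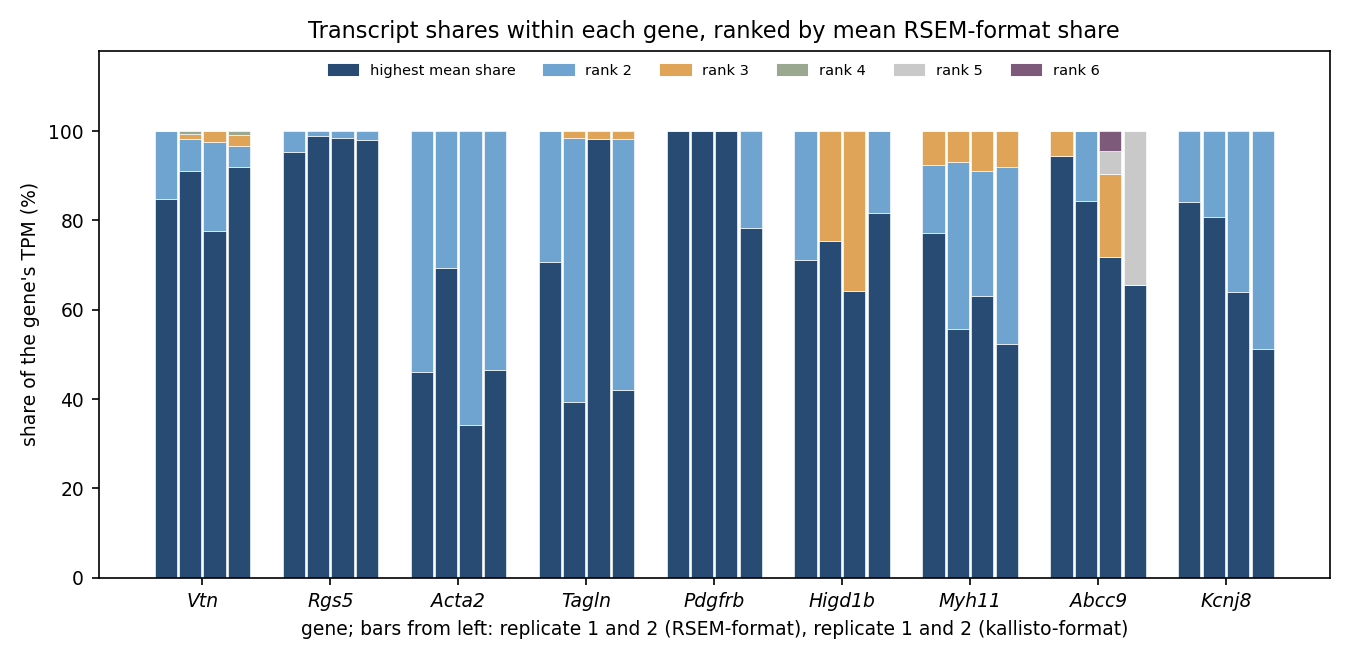
Share of each gene's TPM by transcript in percent, with 4 bars per gene for replicates 1 and 2 in the RSEM-format and then the kallisto-format table, and colours for the rank of the transcript by mean RSEM-format share. Rgs5 is nearly all of 1 transcript in every bar, while the leading colour changes between libraries for Tagln in both tables and for Acta2 in the RSEM-format bars only.

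Most relatives stood above the mural member of their family in both libraries. In RSEM-format TPM the exceptions were Rgs16 beside Rgs5, Actc1 and Actg2 beside Acta2, Tagln2 beside Tagln and Higd1c beside Higd1b. The place of Tagln2 was not resolved. In the kallisto-format table Tagln2 was above Tagln in replicate 1 (7.45 against 5.87 TPM) and below it in replicate 2 (5.75 against 7.60 TPM). Acta1 lay below Acta2 in replicate 1 and above it in replicate 2.

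**Figure D3:**
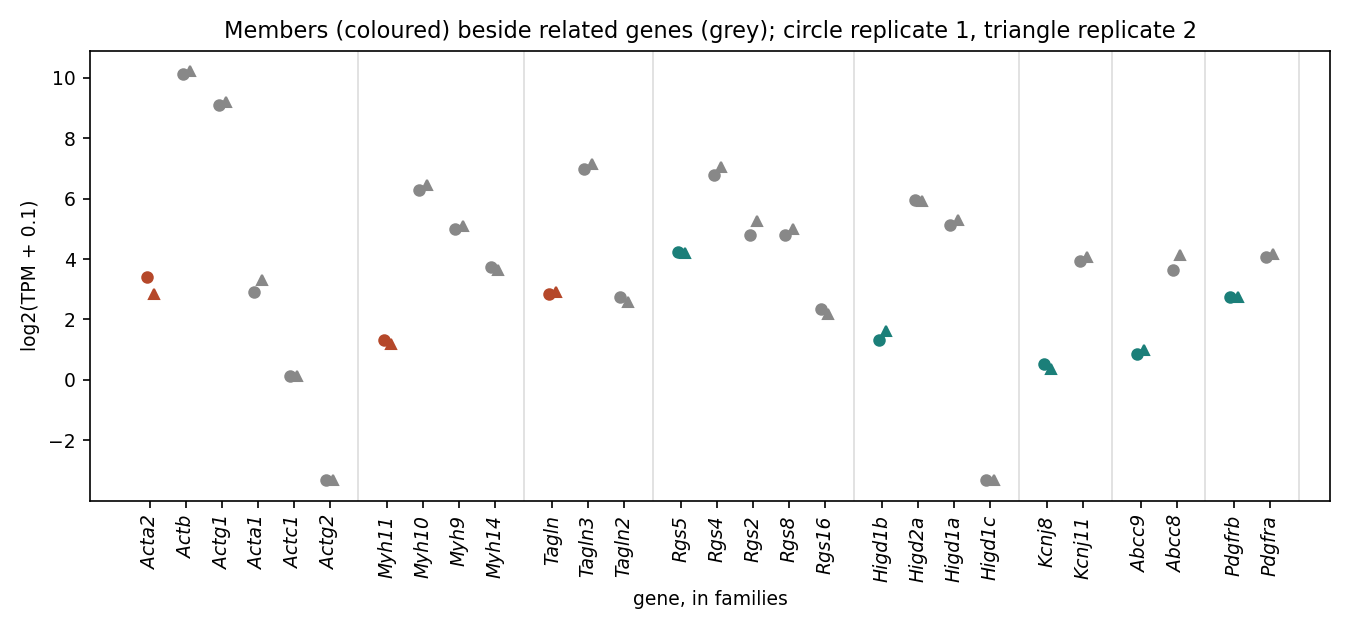
Level as log2(TPM + 0.1) of each mural gene (coloured) and its related genes (grey), grouped by family, with circles for replicate 1 and triangles for replicate 2. Actb, Myh10, Tagln3, Rgs4, Higd2a, Kcnj11, Abcc8 and Pdgfra lie above the mural gene of their family, and Actg2 and Higd1c lie at 0 TPM.

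Differences between the animals were read as log2 ratios of the reads of replicate 2 to those of replicate 1, and negative ratios thus mean more in replicate 1. A gene was called if it differed by 2-fold or more, had 10 or more reads in a library, and had equal levels outside its counting interval at an error level of 0.1%. None of the 9 members was called, against 1.22% of the 19484 genes tested (237 genes), 0.647% higher in replicate 1 and 0.57% higher in replicate 2. No p-value was computed, since 2 libraries of 1 group give no test. At 1.5-fold, 1 member was called, Tagln, against 347 of the 19484 genes tested. This call holds for reads, while the deposited TPM of Tagln was 7.12 in replicate 1 and 7.49 in replicate 2.

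Most members had more reads in replicate 1 after scaling to library size. The ratio was below 0 for 8 of 9 members, against 50.3% of the genes tested. On the scale of deposited TPM, where the median over all genes tested was itself shifted to 0.12, the ratio was below 0 for 5 of 9, against 27.4% of the genes tested, and below that median for 7 of 9. Pdgfrb, Tagln, Abcc9 and Higd1b were the members above 0 on that scale. The 95% interval, which covers counting error only, lay below 0 for 5 of 9, against 13.5% of the genes tested, and above 0 for none, against 12.8%. These 5 were all 3 smooth muscle members and 2 of 6 pericyte members. Tagln was at -0.63 (95% interval -0.97 to -0.31), Acta2 at -0.40 (-0.65 to -0.16) and Myh11 at -0.26 (-0.48 to -0.04). Vtn was at -0.13 (-0.24 to -0.02) and Rgs5 at -0.12 (-0.22 to -0.02). The intervals of Pdgfrb (-0.26 to 0.02), Abcc9 (-0.30 to 0.17), Kcnj8 (-0.84 to 0.20) and Higd1b (-0.51 to 0.91) held 0.

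Summed over members, the pericyte reads were 4411 and 3963, a log2 ratio of -0.12 (95% interval -0.18 to -0.06). The smooth muscle reads were 916 and 684, a ratio of -0.39 (-0.53 to -0.24). Since the interval leaves out the spread between animals, whether smooth muscle and pericyte genes differed in this respect was not tested. The median ratio was -0.12 for the pericyte members and -0.40 for the smooth muscle members. Endothelial markers, from the cells that mural cells cover, had a median ratio of -0.02. Their summed reads were 10779 in replicate 1 and 10475 in replicate 2. Their summed deposited TPM was 165.32 and 179.36, on a scale where all genes tested had a median log2 ratio of 0.12. Markers of fibroblasts and meninges had a median of -0.14 with summed levels of 85.28 and 72.09 TPM. None of these 9 was called, against 1.22% of all genes tested. Astrocyte markers had a median of -0.14 and microglial markers of -0.16.

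**Figure D4:**
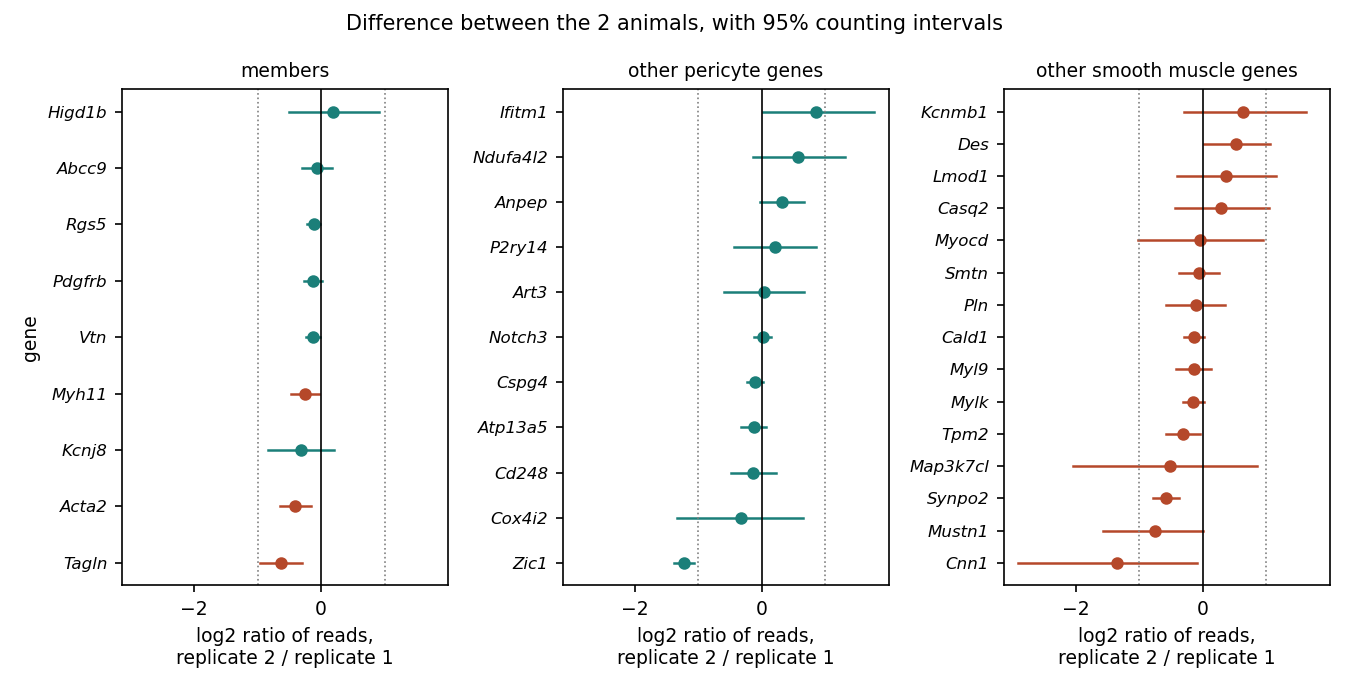
Log2 ratio of reads, replicate 2 over replicate 1, with 95% counting intervals, for the members and for the other pericyte and smooth muscle genes; dotted lines mark 2-fold. The 3 smooth muscle members lie at or below -0.26, and Zic1 lies past the 2-fold line at -1.23 with an interval clear of it.

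Other genes of pericytes gave a lower middle level than the pericyte members. All 11 were detected, with a median of 2.39 TPM. The highest were Zic1 at 10.33 ± 6.20 TPM, a transcription factor read in pericytes and meninges, and Cspg4 at 7.25 ± 0.81 TPM, the NG2 proteoglycan that oligodendrocyte precursors also carry. Notch3, the receptor by which mural cells respond to Notch ligands, was at 5.10 ± 0.35 TPM, and Atp13a5, a pericyte-enriched transporter, at 5.08 ± 1.08 TPM. The read ratio was below 0 for 5 of the 11 and above 0 for 6, with a median of 0.01, against 50.3% of all genes tested below 0. The 95% interval lay below 0 for 1 (9.09%, against 13.5% of all) and above 0 for 1 (9.09%, against 12.8%). The lean of the members to replicate 1 was thus not seen in this list. Only Zic1 was called, against 1.22% of all genes tested. It had 1142 reads in replicate 1 and 475 in replicate 2, a log2 ratio of -1.23 (95% interval -1.39 to -1.08). Its difference had the direction of the choroid plexus markers, whose part in it was not tested.

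Of 16 other smooth muscle genes, 7 were detected in both libraries and the median was 1.09 TPM. The highest were Myl9 at 9.43 ± 0.62 TPM, the regulatory light chain, and Cald1 at 9.39 ± 0.69 TPM, which encodes the actin-binding caldesmon. Tpm2, a tropomyosin, was at 6.35 ± 0.40 TPM and Mylk, the kinase that starts contraction by phosphorylating the light chain, at 6.07 ± 0.24 TPM. None of the 15 tested was called, against 1.22% of all genes tested. The read ratio was below 0 for 11 of the 15, with a median of -0.14, against 50.3% of all genes tested. The 95% interval lay below 0 for 3 (20%, against 13.5% of all) and above 0 for 1 (6.67%, against 12.8%), shares near those of all genes. These 4, named after their values were seen, were Tpm2, Synpo2 and Cnn1 below 0 and Des above 0.

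Among 10 regulators of mural genes, serum response factor and its broadly expressed partners stood high and the smooth muscle partner low. Mrtfb was at 68.97 ± 6.41 TPM, Mrtfa at 27.20 ± 1.55 TPM and Srf at 25.53 ± 1.71 TPM. Epas1, a hypoxia-inducible factor of endothelium and pericytes, was at 41.58 ± 2.06 TPM. Myocd (myocardin), named outside the rule for named genes, was at 0.28 and 0.18 TPM on 20 and 19 reads. Also outside that rule, Heyl was at 2.28 and 2.55 TPM and Foxc1 at 2.36 and 2.30 TPM. Foxf2 was at 1.93 and 2.00 TPM, Tbx18 at 0.98 TPM in both libraries, and Zic1 is given above.

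**Figure D5:**
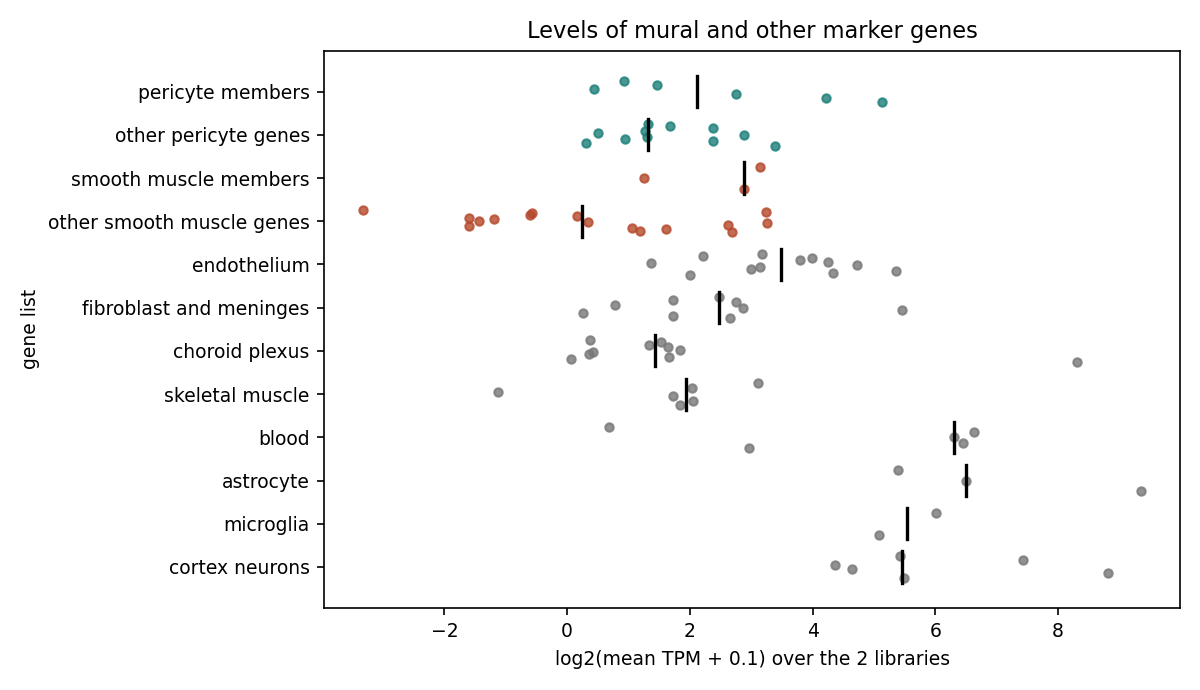
Mean level over the libraries as log2(mean TPM + 0.1) of every gene in each list, with a bar at the median. Pericyte and smooth muscle lists lie left of the astrocyte, microglial and neuronal lists, and the endothelial median of 11.3 TPM lies above all 4 mural lists.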

How the data were processed

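The authors deposited, per library, a gene and a transcript table in RSEM format and a transcript table in kallisto format. Per the file headers, the RSEM-format values are expected counts, TPM and, for transcripts, the percent that each takes of its gene (IsoPct); the kallisto-format table deposited by the authors holds estimated counts and TPM. A deposited text description gives mm10 and annotation M21. Printed sequences are reference letters. Differences of CAST alleles from the reference, in these letters or in the reads behind transcript shares, were not examined. Aligner, program versions, strand setting and read filters were not given in the sources used here. Per the labels' protocols, the libraries were directional and made from ribosomal RNA-reduced material.

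Reads not on genes (0.517% and 0.500% of 34101499 and 32543032) were left out. Expected counts were rounded and scaled by TMM effective library sizes (edgeR 4.0.16), with 0.5 reads added; DESeq2 1.42.0 size factors were an alternative. Printed intervals are 95% Clopper-Pearson intervals of the split of reads. They and the floor of 3 reads cover counting error alone, because without molecular identifiers reads do not count separate molecules. TPM are shares of all RNA in a table, so abundant RNA lowers the rest. The TPM-scale values over the longest coding transcript used the reads divided by that transcript's length. The calling step was tested on simulated data. Named genes were the members, transcripts of at least 10% in a library, the 4 highest genes of each other list, close relatives of members, and every gene called. Members and lists were chosen with earlier results of these data known. Nothing says how the animals were related, so the spread between samples may be partly technical.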

Additional observations from a re-analysis of the deposited data

How the results depend on the processing

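The gap between pericyte and smooth muscle members (main value -0.74) was -0.62 with a pseudocount of 1 TPM, -0.56 with kallisto-format TPM, and -1.39 without Pdgfrb. It turned to 0.066 with means over members and to 0.48 with the other pericyte and smooth muscle genes added. In alternatives chosen after seeing the data it was -1.39 without Vtn and -0.18 with reads over the longest coding transcript. Each library alone gave -0.82 to -0.66. The cause of these shifts was not tested. The count of members called was 0 under DESeq2 size factors, total counts, kallisto-format counts and no minimum of reads, and 1 at 1.5-fold. Calls over all genes numbered 237 in the main setting and 236 to 347 under the alternatives; total counts split them 120 to 120 and kallisto-format counts 111 higher in replicate 1 to 187 higher in replicate 2, against 126 to 111. The log2 ratios of all 9 members stayed within their intervals under DESeq2 size factors, total counts and kallisto-format counts. Mean TPM moved by more than 1 SD for 5 of 9 members with kallisto-format TPM and for 5 over the longest coding transcript. The longest coding transcript put Pdgfrb (6.62) above Acta2 (6.33) and Tagln (4.61). Rescaling to nuclear protein-coding genes multiplied every TPM by 2.38 in replicate 1 and by 2.21 in replicate 2. It moved the mean TPM of 9 of 9 members by more than 1 SD, a move set by these factors. The leading share moved for 4 of 9 members in the kallisto-format table. In an alternative chosen after seeing the data, 5 rather than 8 of 9 members had a ratio below 0 on deposited TPM. No paired analysis was possible because the libraries form 1 group. Depth limits Higd1b and Kcnj8 most, with fewer than 100 reads per library.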

Other observations

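Genes of striated muscle were read in both cortex libraries beside those of vascular smooth muscle. Of 6 listed, 5 reached 1 TPM in both. Acta1 was at 7.32 and 9.70 TPM, the fast skeletal myosin light chain Mylpf at 3.21 and 4.86 TPM, the creatine kinase Ckm at 3.87 and 4.11 TPM, and the troponin Tnnt3 at 3.13 and 3.87 TPM. None of the 6 was called between the animals, against 1.22% of all genes tested. The part of these genes in the level of Acta2, which shares actin sequence with Acta1, was not tested.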
